A study of Mus musculus with 2 samples.

Results

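Tropomyosins and other contractile actin-binding proteins were followed through 10 genes, Tpm1, Tpm2, Tpm3, Tpm4, Acta2, Myl9, Tagln, Tagln2, Cnn2 and Cnn3, out of 25668 gene symbols listed. All 10 were found by symbol in both libraries. The genes had been picked from the same comparison that is described here, so their differences are a description of these libraries and carry no test. The data are TPM (read numbers per gene length, brought to 1 common total in each library) from RNA of mouse fallopian tube (oviduct) epithelial organoids, with 1 library labelled Trp53 KO (casP) and 1 labelled WT (cas-nFTE). The study asked what loss of TRP53, the p53 tumour suppressor, changes in this epithelium. Both libraries carry the treatment label conditioned medium. The WT organoids came from a mouse with the allele Gt(ROSA)26Sortm1(CAG-cas9*,-EGFP)Fezh on a B6J.129(B6N) background, which carries Cas9 and EGFP in the Rosa26 locus. The sources used here do not give the age of the animals, the guide used, whether the knockout organoids were 1 clone or how many animals stand behind each library.

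Tropomyosins are coiled-coil dimers that lie end to end along actin filaments and set which myosins and other binding proteins reach the filament. Across the tropomyosin genes, muscle and non-muscle isoforms are made from alternative exons and, in some of the genes, alternative promoters. Smooth muscle alpha-actin (Acta2), transgelin (Tagln, SM22 alpha) and the myosin regulatory light chain Myl9 are best known from smooth muscle, myofibroblasts and myoepithelial cells. Tagln2 and the calponins Cnn2 and Cnn3 are found in many non-muscle cells. In the oviduct a smooth muscle coat lies around the epithelium, which itself relies on non-muscle actin and myosin II for its shape.

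The start regions of 3 members are shown because the windows searched for Cnn2 and Myl9 hold an exact match to the CArG box, the site bound by serum response factor (SRF), and because Tpm2 had the largest difference. They are RefSeq sequences of build GRCm38.p6, an earlier build than the GRCm39 of the deposited values, read 5′ to 3′ on the strand of the gene. Only the longest stretch of the 250 bases before the start that lies outside annotated exons is given. Capitals mark the CArG box.
Tpm2 (chr4:43523596-43523700, minus strand): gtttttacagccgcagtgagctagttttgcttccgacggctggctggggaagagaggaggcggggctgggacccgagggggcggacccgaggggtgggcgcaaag
Cnn2 (chr10:79988350-79988583, plus strand): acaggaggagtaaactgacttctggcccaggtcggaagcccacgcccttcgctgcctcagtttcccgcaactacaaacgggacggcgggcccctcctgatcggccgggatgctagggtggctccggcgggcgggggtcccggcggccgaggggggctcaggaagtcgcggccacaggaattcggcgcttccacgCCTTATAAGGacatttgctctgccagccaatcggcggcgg
Myl9 (chr2:156775214-156775407, plus strand): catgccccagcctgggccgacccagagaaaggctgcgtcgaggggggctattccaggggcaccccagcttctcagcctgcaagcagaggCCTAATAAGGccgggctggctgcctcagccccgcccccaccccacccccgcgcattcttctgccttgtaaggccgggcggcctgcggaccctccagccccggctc

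The promoter table held 10 windows of 300 bases (250 before to 50 after a start) for 9 of the 10 members, 2 of them for Tpm3, and Tagln was not matched. A site outside these windows, or with other letters, would not be found. The CArG box was found in 2 of the 10 windows, beginning 56 bases before the start in Cnn2 and 161 bases before it in Myl9. Of all 32851 windows in the table, 1.63% held it. The letters CATTCC, on either strand, known as the M-CAT element that TEAD factors read, were found in the windows of Acta2, Tagln2 and Tpm1 and in 14.7% of all windows. TATAAA, on either strand, was found in 0 member windows and in 13.6% of all windows. None of these matches overlapped another in the member windows. Of the pair with the CArG box, Cnn2 was higher in the Trp53 KO library and Myl9 was listed at 0 there. A match of letters is a description and not evidence that a factor binds.

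Trp53 itself had 2.42 TPM in the Trp53 KO library, against 83.2 TPM in the WT library, a ratio of 0.0291 (counting interval 0.0230 to 0.0362). Counting intervals are exact 95% Clopper-Pearson intervals on recovered or estimated reads. They hold counting error alone and no spread between libraries. PCR copies of a molecule cannot be told from separate molecules here, so the intervals may be too narrow even for counting error. Recovered from low values, the worth of 1 read on a gene of 1000 bases was 0.0565 TPM (Trp53 KO) and 0.0168 TPM (WT). The reads estimated from it, over 21149 genes with a known length, summed to 27688213 in the Trp53 KO library and 100099420 in the WT library. With 1 library in each group, no difference below has a replicate check.

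The members spanned a wide range of levels in both libraries, and 3 of them differed strongly. Of the 10 members, 8 had a mean of at least 1 TPM and are called measured, while Myl9 and Tagln were below it. Differences are log2(TPM + 1) in the Trp53 KO library minus the same in the WT library, a scale that understates the change of low genes, and at least 2-fold on it is called higher or lower. Of the 8 measured members, 3 (Tpm2, Acta2 and Cnn2) were higher and 0 lower. Of all 11228 measured genes, 8.35% were higher and 15.3% lower. The median difference was 0.74 over the measured members and -0.17 over all measured genes. Because the members were chosen from this contrast, nothing is read from the gap between these shares.

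**Figure D1:**
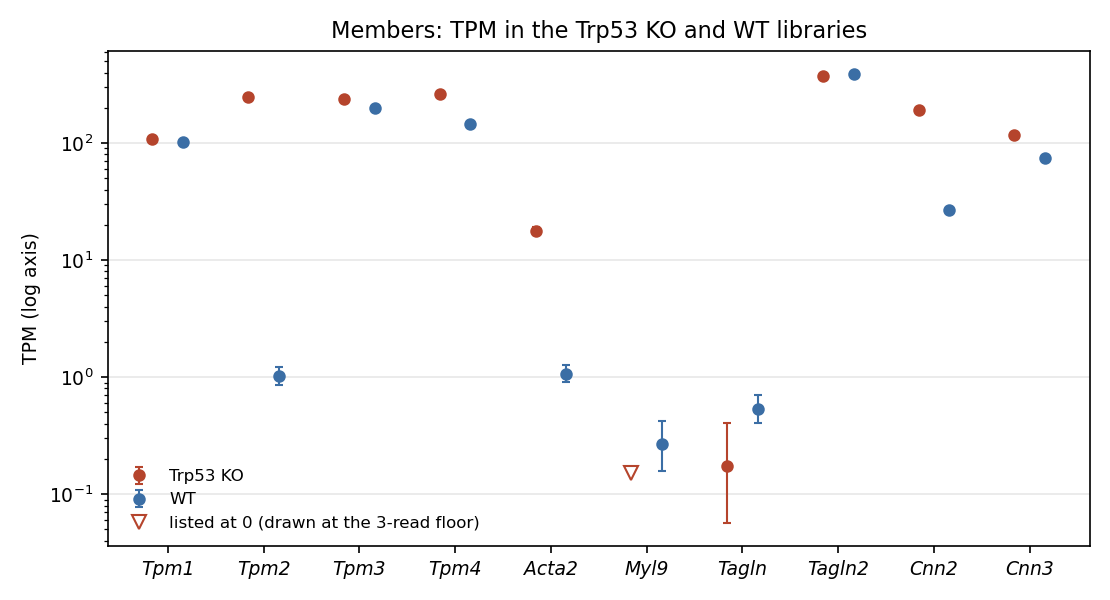
TPM of each member on a log axis in the Trp53 KO library (red, left of each pair) and the WT library (blue, right), with exact 95% Poisson intervals from recovered or estimated reads. Tpm2, Acta2 and Cnn2 have the widest gaps, Tpm1, Tpm3 and Tagln2 lie close together, and Myl9, listed at 0 in the Trp53 KO library, is drawn there as an open triangle at 0.150 TPM, the worth of 3 reads.

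Among the tropomyosins, Tpm2, which encodes beta-tropomyosin of muscle and non-muscle cells, had 249 TPM in the Trp53 KO library, against 1.03 TPM in the WT library. From an estimated 9576 reads in the Trp53 KO library and 133 in the WT library, the ratio was 242 (counting interval 204 to 290). Its difference of 6.94 ranked 4 of 11228 measured genes, highest first. Tpm2 therefore stood among the highest members in the Trp53 KO library and among the lowest in the WT library.

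Tpm2 lies on chromosome 4, whose genes were higher in the Trp53 KO library as a whole. The other 679 measured genes of that chromosome had a median difference of 0.62, the highest chromosome median of the 20 chromosomes compared, and 28.8% of the 680 measured there were higher. Measured against that median, the difference of Tpm2 was 6.32. No other measured gene on chromosome 4 had a larger difference, and the next one there stood at 5.89. The part of the chromosome in the Tpm2 level was not tested beyond this.

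**Figure D2:**
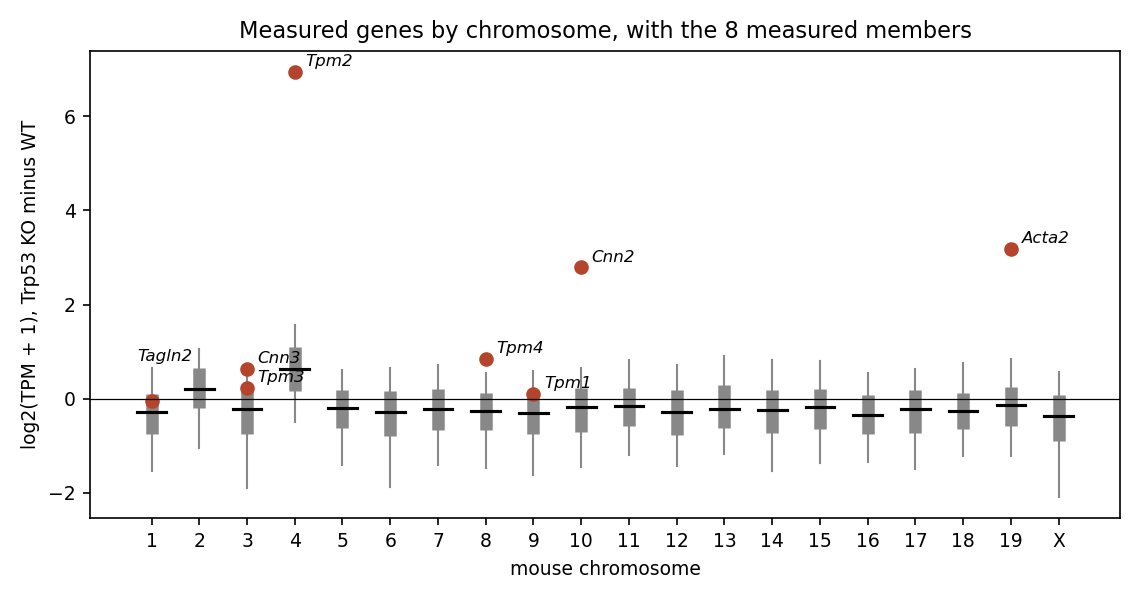
Differences in log2(TPM + 1), Trp53 KO minus WT, of measured genes on each mouse chromosome: black lines are medians, thick bars the middle 50% of genes and thin lines the 10th to 90th percentiles. Red points are the 8 measured members, and Tpm2, Acta2, Cnn2 and Tpm4 lie above the 90th percentile of their chromosomes.

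Tpm4, a short cytoskeletal tropomyosin gene in most cells, had 262 TPM in the Trp53 KO library and 145 TPM in the WT library, a ratio of 1.81 (1.76 to 1.85). Its difference of 0.85 was under 2-fold, and it was past 2-fold after rescaling by the median ratio of all genes (1.03) and against the median of its own chromosome 8 (1.11). Tpm3, which supplies slow-muscle and cytoskeletal isoforms, had 236 TPM in the Trp53 KO library, against 201 TPM in the WT library, and a ratio of 1.17 (1.15 to 1.20). Tpm1, the alpha-tropomyosin gene, had 109 TPM in the Trp53 KO library and 101 TPM in the WT library, a ratio of 1.08 (1.05 to 1.11). Tpm1 and Tpm3 thus differed by less than 1.2-fold between the libraries as deposited. After rescaling by the median ratio, the difference was 0.28 for Tpm1 and 0.41 for Tpm3. Against their chromosome medians it was 0.42 for Tpm1 and 0.46 for Tpm3, still under 2-fold. The levels of all members are for whole genes, so a switch between isoforms of 1 gene would not be seen except as a change in the length-scaled total.

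The make-up of the tropomyosin pool differed with Tpm2. The 4 genes summed to 857 TPM in the Trp53 KO library and 449 TPM in the WT library, a ratio of 1.91. Without Tpm2 the sums were 608 TPM in the Trp53 KO library and 448 TPM in the WT library, a ratio of 1.36. Tpm2 made up 29.0% of the sum in the Trp53 KO library, against 0.229% in the WT library. Tpm4 held 30.6% in the Trp53 KO library and 32.3% in the WT library. Tpm3 held 27.6% in the Trp53 KO library and 44.9% in the WT library, while Tpm1 held 12.7% in the Trp53 KO library and 22.6% in the WT library. In the Trp53 KO library the order by level was Tpm4, Tpm2, Tpm3 and Tpm1, and in the WT library it was Tpm3, Tpm4, Tpm1 and Tpm2. The exact Poisson intervals of neighbours in these orders did not overlap, although the order also depends on the gene lengths that the authors divided by.

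**Figure D3:**
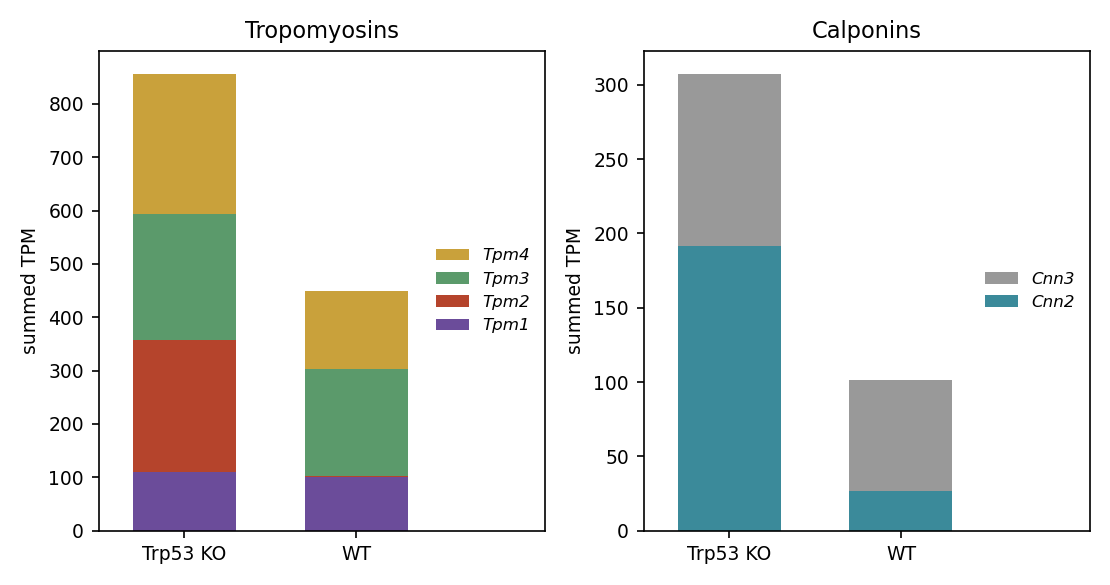
Summed TPM of the 4 tropomyosins (left) and of the calponins Cnn2 and Cnn3 (right) in the Trp53 KO library and the WT library, stacked by gene from 0. The Tpm2 block makes up 29.0% of the tropomyosin bar in the Trp53 KO library and 0.229% in the WT library, and Cnn2 makes up 62.2% of the calponin bar in the Trp53 KO library and 26.5% in the WT library.

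Reads of near-identical copies can be shared in the counting. Stretches were compared singly, here and below, although the libraries are read pairs, so a pair could still be placed by its other read. In 50-base stretches, the read length given in the labels, 62.4% of the longest Tpm3 transcript of GENCODE M21 was also found in transcripts of another gene, in each case including the Tpm3 copy Tpm3-rs7. That copy had 2.74 TPM in the Trp53 KO library and 1.82 TPM in the WT library. For Tpm4 the share was 12.1%, all of it with the predicted gene Gm7809. Tpm1 and Tpm2 shared 0 such stretches with another gene, and 0 stretches were common to any pair of the 4 tropomyosins. The levels of Tpm3 and Tpm4 are therefore less certain than those of Tpm1 and Tpm2.

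Acta2, smooth muscle alpha-actin, had 17.8 TPM in the Trp53 KO library, against 1.07 TPM in the WT library. These were 693 whole reads in the Trp53 KO library and 140 in the WT library at the summed exon length of the gene in GENCODE M21, and the ratio was 16.7 (13.9 to 20.1). The difference of 3.19 ranked 91 of 11228 measured genes. Acta2 stayed a minor actin in both libraries. Of the summed level of Actb, Actg1 and Acta2 it made up 0.294% in the Trp53 KO library and 0.0267% in the WT library.

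Actins are close in sequence, so the overlap with other actin genes was counted. In the longest Acta2 transcript, 7 of 1986 stretches of 50 bases, or 0.352%, were also found in transcripts of other genes, which were Actg1, Actg-ps1 and the predicted genes Gm12715, Gm16385, Gm6375 and Gm8399. Of these stretches 0 were found in Actb, Actg2, Acta1 or Actc1. The share counts positions in Acta2 and is not weighed by the far higher level of Actg1, given below. The 7 stretches form 1 run of 56 bases within the coding sequence, from coding base 910 to 965, shown here because it is where a read of this length could come from gamma-actin instead.
Acta2 and Actg1 (shared, transcript Acta2-201 on chromosome 19): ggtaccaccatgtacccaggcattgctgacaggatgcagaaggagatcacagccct
Actg1, cytoplasmic gamma-actin, had 3635 TPM in the Trp53 KO library and 2393 TPM in the WT library, a ratio of 1.52. Actb, cytoplasmic beta-actin and named after its values were seen, had 2415 TPM in the Trp53 KO library and 1614 TPM in the WT library. Of the 5 actin isoforms other than Acta2, these were the 2 measured ones, with 0 higher and 0 lower.

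Myl9 and Tagln, which share with Acta2 a high level in smooth muscle, were at the bottom of the list in both libraries. Myl9, a regulatory light chain of myosin II, was listed at 0 in the Trp53 KO library and had 0.268 TPM, from 18 whole reads, in the WT library. The exact interval of the ratio reached up to 0.765. Tagln had 0.174 TPM in the Trp53 KO library, from 5 reads, against 0.538 TPM, from 52 reads, in the WT library. The ratio was 0.324 (0.101 to 0.805). On the log2(TPM + 1) scale the difference of Tagln was -0.39. It was -1.22 with a pseudocount of 0.1 TPM, -0.08 relative to its chromosome median and 0.01 after quantile normalization. The sign held under 5 of 6 alternatives but not under all, so no direction is given for Tagln. Both genes rest on few reads, so the size of their differences is known only within those intervals. In bulk RNA, fewer cells of a type and less RNA per cell cannot be told apart.

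Myl9 lies on chromosome 2, where the median difference of 902 measured genes was 0.20, the next highest after chromosome 4. The other non-muscle regulatory light chains, named after their values were seen, were far above Myl9. Myl12a had 272 TPM in the Trp53 KO library and 234 TPM in the WT library, and Myl12b had 293 TPM in the Trp53 KO library and 344 TPM in the WT library. Together with Myl9 they summed to 566 TPM in the Trp53 KO library and 579 TPM in the WT library.

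Tagln2, a transgelin of non-muscle cells, was the highest member in both libraries. It had 375 TPM in the Trp53 KO library and 391 TPM in the WT library, a ratio of 0.959 (0.939 to 0.980). The difference of -0.06 lay above the median of all measured genes, -0.17. Its sign was positive after rescaling by the median ratio (0.12) and against the median of its own chromosome 1 (0.23), so no direction is given for it. Tagln2 exceeded Tagln 2157-fold in the Trp53 KO library and 727-fold in the WT library, on the TPM scale. Tagln in the Trp53 KO library rests on 5 reads (Poisson interval 0.0565 to 0.406 TPM), so nothing is read from the gap between these folds.

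The calponins, actin-binding proteins that can damp myosin activity, differed from each other. Cnn2 had 191 TPM in the Trp53 KO library, against 26.8 TPM in the WT library. These were 8329 whole reads in the Trp53 KO library and 3928 in the WT library, and the ratio was 7.14 (6.87 to 7.41). The difference of 2.79 ranked 134 of 11228. Cnn3, an acidic calponin of many non-muscle cells, had 116 TPM in the Trp53 KO library and 74.5 TPM in the WT library, a ratio of 1.56 (1.503 to 1.62) and a difference of 0.63, under 2-fold. Cnn2 made up 62.2% of the summed Cnn2 and Cnn3 level in the Trp53 KO library and 26.5% in the WT library, so the order of this pair was turned round. Cnn1, the smooth muscle calponin, named after its values were seen, was listed at 0 in both libraries. In 50-base stretches Cnn2 shared 0 with other genes, and Cnn3 shared 16.4% with the predicted genes Gm4815 and Gm17936.

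**Figure D4:**
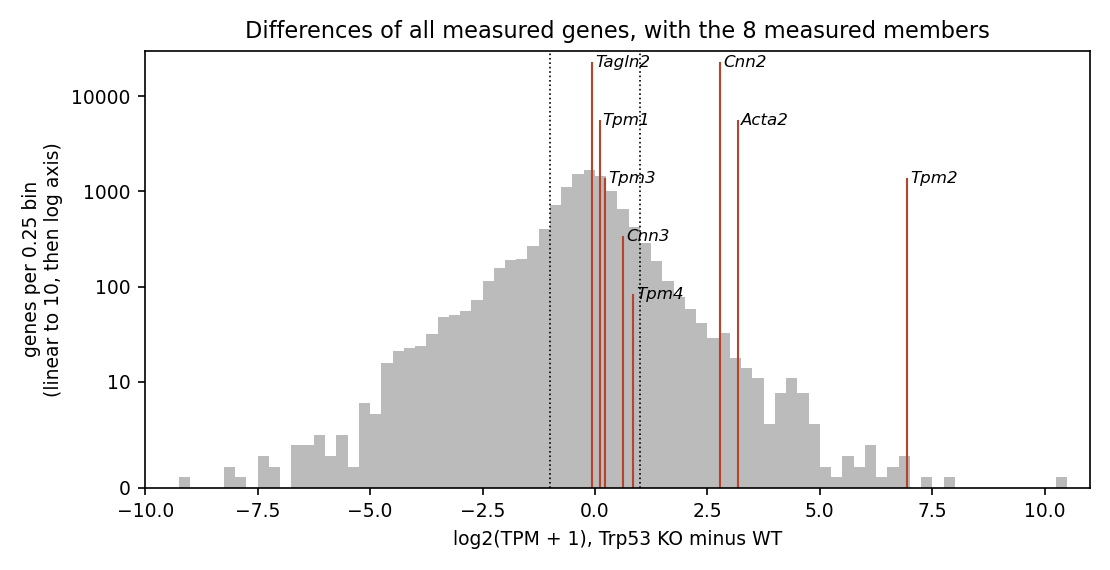
Number of measured genes per bin of difference in log2(TPM + 1), Trp53 KO minus WT, on an axis that is linear to 10 genes and logarithmic above. Red lines, of arbitrary height, mark the 8 measured members and dotted lines the 2-fold limits: Tagln2, Tpm1, Tpm3, Cnn3 and Tpm4 lie between the limits, and Cnn2, Acta2 and Tpm2 lie at 2.79, 3.19 and 6.94.

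Across all 10 members, the order of levels in the Trp53 KO library was Tagln2, Tpm4, Tpm2, Tpm3, Cnn2, Cnn3, Tpm1, Acta2, Tagln and Myl9. Only Tagln and Myl9 had overlapping Poisson intervals among neighbours in that order. In the WT library the order was Tagln2, Tpm3, Tpm4, Tpm1, Cnn3, Cnn2, Acta2, Tpm2, Tagln and Myl9, and the intervals of Acta2 and Tpm2, and those of Tagln and Myl9, overlapped. The 10 members summed to 1558 TPM in the Trp53 KO library and 943 TPM in the WT library, a ratio of 1.65.

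By distance between the pairs of log2(TPM + 1) values over the 2 libraries, the 5 genes nearest to Tpm2 were Krt14, Gsta1, Sncg, Upk3bl and Aqp4. Krt14, a keratin of basal epithelial cells and the nearest at a distance of 0.90, had 200.4 TPM in the Trp53 KO library and 0.129 TPM in the WT library. Gsta1, a glutathione transferase, had 152 TPM in the Trp53 KO library and 2.27 TPM in the WT library. Aqp4, a water channel and the farthest of the 5 at a distance of 1.47, had 93.9 TPM in the Trp53 KO library and 0.464 TPM in the WT library. A likeness over 2 libraries is a single pair of values and describes only these samples.

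Genes of the same machinery, listed by function and without the members, differed in both directions. Among 7 measured myosin II chains, 0 were higher, 1 was lower, and the median was -0.27. The lower one was Myh10, the non-muscle heavy chain IIB, with 2.70 TPM in the Trp53 KO library and 10.8 TPM in the WT library. Myl6, the essential light chain, had 1028 TPM in the Trp53 KO library and 985 TPM in the WT library. Of 19 measured regulators of myosin light chain phosphorylation, 1 was higher, 2 were lower, and the median was 0.31. Mylk, the kinase that switches on myosin II in smooth muscle, had 1.34 TPM in the Trp53 KO library and 8.64 TPM in the WT library. Rhob, a small GTPase, had 22.7 TPM in the Trp53 KO library and 62.5 TPM in the WT library. Rnd3, an atypical small GTPase, was the higher one, with 42.0 TPM in the Trp53 KO library and 14.7 TPM in the WT library. Rhoa itself had 255 TPM in the Trp53 KO library and 262 TPM in the WT library.

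Partners of tropomyosin on the thin filament were mostly low. Of 9 tropomodulins, leiomodins and related genes, 3 were measured, with 0 higher, 0 lower, and the median at 0.10. Tmod3, the tropomodulin that caps tropomyosin-coated filament ends in epithelia, had 56.1 TPM in the Trp53 KO library and 39.4 TPM in the WT library. Of 8 troponin genes, 3 were measured, with 2 higher and 0 lower. Tnni2, fast skeletal troponin I, had 18.0 TPM in the Trp53 KO library and 1.40 TPM in the WT library, a ratio of 12.8 (9.71 to 17.2). Tnnc2, fast skeletal troponin C, had 2.67 TPM in the Trp53 KO library and 0.0720 TPM, from 3 reads, in the WT library, a ratio of 37.0 (11.6 to 189). Tnnc2 lies on chromosome 2, as Myl9 does. Tnnc1, the troponin C of slow and cardiac muscle and named after its values were seen, had 0.706 TPM in the Trp53 KO library and 2.35 TPM in the WT library, a ratio of 0.300 (0.133 to 0.592) and a difference of -0.98, just under 2-fold. Under 2 alternatives it was lower, with a pseudocount of 0.1 TPM and without mitochondrially encoded genes and the 100 highest genes. The count of higher troponins was 1 under 3 alternatives.

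Crosslinkers and bundlers of actin held 3 higher and 3 lower genes among 12 measured, with a median of -0.06. Fscn1, fascin, which packs filaments into filopodia, had 15.6 TPM in the Trp53 KO library and 0.0565 TPM, from 9 reads, in the WT library, a ratio of 277 (145 to 608). Flna, filamin A, had 49.8 TPM in the Trp53 KO library and 21.9 TPM in the WT library. Lcp1, L-plastin, had 0.152 TPM in the Trp53 KO library and 4.63 TPM in the WT library, and Pls1, the plastin of microvilli, had 2.56 TPM in the Trp53 KO library and 13.03 TPM in the WT library. Actn4, an alpha-actinin, was the most abundant of the list, with 211 TPM in the Trp53 KO library and 163 TPM in the WT library.

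Of 15 measured genes of actin turnover and capping, 4 were higher, 2 were lower, and the median was 0.31. Relative to the chromosome medians 2 were higher, and at a limit of 4-fold 1 was. Capg, a gelsolin relative that caps filaments, had 620.5 TPM in the Trp53 KO library and 107 TPM in the WT library, a ratio of 5.79 (5.64 to 5.94). Cap1, which helps to recycle actin monomers, had 81.8 TPM in the Trp53 KO library and 36.8 TPM in the WT library and lies on chromosome 4, as Tpm2 does. Pfn2, a profilin, had 4.36 TPM in the Trp53 KO library and 40.6 TPM in the WT library. Gsn, gelsolin, had 113 TPM in the Trp53 KO library and 278 TPM in the WT library. Tmsb4x, thymosin beta 4, which holds actin monomers in reserve, had 3134 TPM in the Trp53 KO library and 1528 TPM in the WT library.

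Focal adhesion and LIM domain genes held 4 higher and 3 lower among 18 measured, with a median of 0.04. Pdlim1, which links alpha-actinin to partner proteins, had 60.0 TPM in the Trp53 KO library and 13.9 TPM in the WT library. Fhl2, a LIM-only cofactor, had 17.9 TPM in the Trp53 KO library and 3.99 TPM in the WT library. Csrp1, a LIM protein of smooth muscle and other cells and the most abundant of the list, had 255 TPM in the Trp53 KO library and 78.3 TPM in the WT library. Fermt2, kindlin-2, had 0.166 TPM in the Trp53 KO library and 15.7 TPM in the WT library, and Tns1, tensin 1, had 0.106 TPM in the Trp53 KO library and 7.34 TPM in the WT library.

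SRF and its cofactors, which in many cells drive genes with CArG boxes, held 0 higher and 0 lower genes among 6 measured, with a median of 0.15. Srf had 18.0 TPM in the Trp53 KO library and 17.2 TPM in the WT library, a ratio of 1.05 (0.967 to 1.13). Myocd, the smooth muscle cofactor of SRF and a marker listed for that tissue, was below 0.2 TPM in both libraries.

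**Figure D5:**
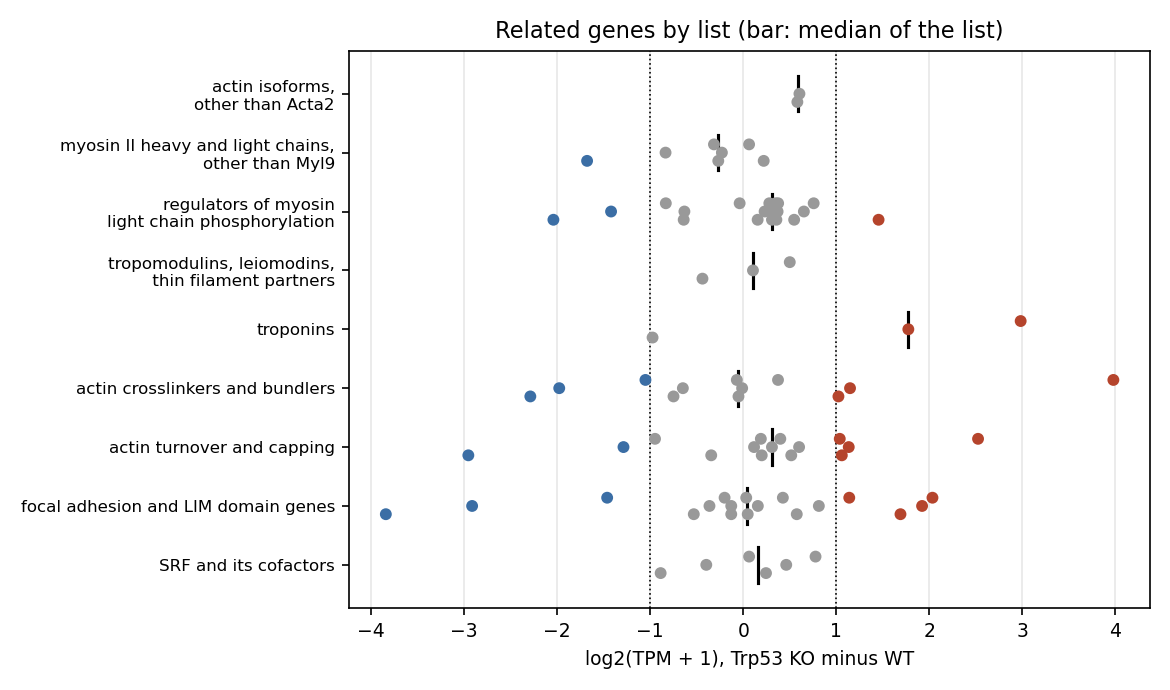
Differences in log2(TPM + 1), Trp53 KO minus WT, of the measured genes in each related list, 1 point per gene with a black bar at the list median. Red points are at least 2-fold higher, blue points at least 2-fold lower and grey points between, and points of both colours stand in 4 of the 9 lists drawn.

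Markers of other cell types were read beside the members. Of 10 smooth muscle markers, 9 were below 0.2 TPM in both libraries, among them Myh11, Des, Cnn1, Lmod1 and Actg2. The exception was Smtn, smoothelin, with 12.5 TPM in the Trp53 KO library and 17.2 TPM in the WT library. The list summed to 12.6 TPM in the Trp53 KO library and 17.4 TPM in the WT library. All 9 fibroblast markers were below 0.2 TPM in both libraries, and they summed to 0.0172 TPM in the Trp53 KO library and 0.113 TPM in the WT library. All 4 endothelial markers were also below 0.2 TPM in both. The 6 pericyte markers summed to 2.45 TPM in the Trp53 KO library and 2.61 TPM in the WT library, and 4 were below 0.2 TPM in both. The exceptions differed in opposite directions. Notch3 had 2.30 TPM in the Trp53 KO library and 1.56 TPM in the WT library. Mcam had 0.136 TPM in the Trp53 KO library and 1.03 TPM in the WT library. The part of these cell types in the levels of the members was not tested.

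Markers of basal and myoepithelial cells, taken as 1 list, did not all differ alike. Of 6 measured markers, 5 (Krt5, Krt14, Krt17, Trp63 and Cdh3) were higher and 0 lower in the Trp53 KO library. The list of 7 summed to 1838 TPM in the Trp53 KO library and 20.1 TPM in the WT library. Krt5, the basal keratin, had 1543 TPM in the Trp53 KO library and 0.130 TPM in the WT library, and Krt14 was given above. Oxtr, the oxytocin receptor of contracting myoepithelial cells, named after its values were seen, had 0.0236 TPM in the Trp53 KO library and 0.235 TPM in the WT library. Of the members known from myoepithelial cells, Acta2 was higher in the Trp53 KO library, while Myl9 and Tagln were below 1 TPM in both libraries. The part of basal or myoepithelial cells in the levels of Acta2, Tpm2 and Cnn2 was not tested.

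The labelled tissue was checked against its own markers. Of 9 oviduct epithelial markers, all 9 were measured, with 1 higher and 2 lower. Krt19, a simple epithelial keratin, had 8176 TPM in the Trp53 KO library and 2313 TPM in the WT library. Ovgp1, the oviduct glycoprotein of secretory cells, had 0.192 TPM in the Trp53 KO library and 7.44 TPM in the WT library. Foxj1, the factor of multiciliated cells, had 52.7 TPM in the Trp53 KO library and 116 TPM in the WT library. Of 3 mesothelial markers, Msln had 232 TPM in the Trp53 KO library and 243 TPM in the WT library. Upk3b had 1.41 TPM in the Trp53 KO library and 1.27 TPM in the WT library, and Lrrn4 was below 0.2 TPM in both. Of 5 immune cell markers, 3 (Ptprc, Cd3e and Adgre1) were below 0.2 TPM in both libraries. Cd68 had 15.97 TPM in the Trp53 KO library and 25.5 TPM in the WT library, and Csf1r had 0.420 TPM in the Trp53 KO library and 8.78 TPM in the WT library.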

How the data were processed

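RNA of cultured organoids was extracted with an RNeasy Plus Mini kit, made into directional libraries and sequenced as 50-base read pairs, per the labels' protocols. The authors deposited TPM for 25668 gene symbols per library. Per the submitters' processing notes, the values are on GRCm39. The sources used here do not give the aligner, counter, strand setting or annotation.

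TPM holds no depth, so reads were recovered from low values. Among 1676 low genes (under 0.5 TPM, but not 0), the ratio between libraries was that of whole reads for 75.6%, taking denominators up to 12 and a tolerance of 0.001%. The worth of a read was set with the longest protein-coding transcripts of GENCODE M21 (an earlier build, so no coordinates were carried over). Whole reads, within 0.001 of a read, were found for 3 members at an annotated length. For Tagln they were taken from its ratio, with a tolerance of 1e-07 on the ratio and 3% on the estimated WT reads. The other 6 members have estimated reads. The 95% intervals and the floor of 3 reads cover counting error only.

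Differences use a pseudocount of 1 TPM, a mean of at least 1 TPM and a limit of 2-fold, in Python 3.11.15 with scipy 1.17.1. With 1 library in each group there is no test between genotypes. Depth recovery and counts were tested on simulated data. The simulation used the same gene lengths to make and to recover reads, so it does not cover lengths that differ from the authors'. The alternatives were other pseudocounts, filters, scalings and limits, protein-coding genes only, and differences relative to the chromosome median.

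The members and lists were chosen with earlier results of these data known. By rule the text names the members, Trp53, the most abundant measured gene of each list with up to 2 of its highest and 2 of its lowest differences past 2-fold, and the 5 genes nearest to Tpm2. Other genes are marked as named after their values were seen, or named as parts of a marker or overlap list. Some genes that the rule takes are left out for space.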

Additional observations from a re-analysis of the deposited data

How the results depend on the processing

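The count of members at least 2-fold higher was 3 under 8 of 10 alternatives and 4 under the other 2, rescaling by the median ratio and differences relative to the chromosome median, where Tpm4 was added. The count of members lower was 0 under all 10. The difference of Tpm2 ranged from 5.40 to 7.78, that of Acta2 from 1.91 to 3.94 and that of Cnn2 from 2.63 to 2.97 over 6 alternatives that change the values. At a limit of 4-fold, 267 genes were higher and 661 lower. With a pseudocount of 5 TPM, 563 were higher and 930 lower, and at a mean of at least 5 TPM 1091 were lower. Rescaling moved the median of all genes to -0.01, and quantile normalization to 0.03, which gave 1292 higher and 1321 lower genes, so that 49.4% of the calls were higher, against 35.3% as reported. The sign of Tagln2 differed under 2 of 6 alternatives and that of Tagln under 1, quantile normalization (0.01). Among the related lists, a limit of 4-fold left 1 higher gene each among troponins, crosslinkers, turnover genes and focal adhesion genes, and 0 among myosin regulators. Depth limits Myl9 and Tagln most. No paired analysis was possible because each group has 1 library. Leaving out a library was not run for the same reason.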
